A study of Mus musculus with 3 samples.

Results

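Glucocorticoid signalling genes were examined in sorted cells of the mouse leptomeninges, the thin inner membranes around the brain. The members were the rows of the count table whose symbol was 1 of 10 chosen names, 10 genes of 46983 in the table. They comprised the corticosteroid receptors Nr3c1 and Nr3c2, the steroid-activating enzyme Hsd11b1, and the glucocorticoid-induced genes Fkbp5, Tsc22d3, Zbtb16, Sgk1, Errfi1, Pdk4 and Glul. The material was 3 bulk RNA libraries of a pia-enriched fraction from vehicle-treated mice, microdissected, dissociated and sorted by flow cytometry. All 3 libraries formed 1 group, numbered 1 to 3 as in the labels, so no treatment, and no corticosteroid exposure, could be compared. What the vehicle accompanied, the sorting gate, and the strain, genotype, age and sex of the animals were not given in the sources used here. Nothing stated whether the libraries came from separate animals, so p-values measure only the spread between these libraries.

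Corticosterone, the main glucocorticoid of mice, enters cells and binds the glucocorticoid receptor, which waits in the cytoplasm in a complex with heat shock proteins. The bound receptor moves to the nucleus and attaches to a palindromic response element, or acts through other factors, and so raises some genes and lowers inflammatory ones. Enzymes inside the cell set how much active hormone reaches the receptor, and in fibroblasts the pathway is known for restraining inflammation and matrix production.

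The element itself is shown first, since it is the sequence to which the bound receptor attaches directly. Its full palindrome, the half-element AGAACA followed by 3 free bases and its mirror TGTTCT, was searched on both strands of RefSeq promoter windows (GRCm38.p6), each holding 250 bases before and 50 after a transcript start. Matched by symbol, windows were found for 8 of the 10 members, and none for Nr3c1 and Zbtb16. The palindrome stood in 3 of 32851 windows (0.00913%), and 1 of those belonged to Sgk1. The match lay at chr10:21993701-21993715, beginning at position -189 from the start of that window's transcript and 965 bases before the next start of the gene. Sgk1 had 6 windows in all. The 250 bases before 2 of its starts and before the start of the only Fkbp5 window are printed 5′ to 3′ on the coding strand (plus for Sgk1, minus for Fkbp5). Capitals mark the palindrome in the first and the GC-rich letters GGGCGG, on either strand, in the others. The first stretch also holds GGGCGG, on the minus strand at position -104, left unmarked. None of these stretches overlapped an exon of GENCODE M21, in which Fkbp5 extends farther upstream, to chr17:28517527.
Sgk1, chr10:21993640-21993889: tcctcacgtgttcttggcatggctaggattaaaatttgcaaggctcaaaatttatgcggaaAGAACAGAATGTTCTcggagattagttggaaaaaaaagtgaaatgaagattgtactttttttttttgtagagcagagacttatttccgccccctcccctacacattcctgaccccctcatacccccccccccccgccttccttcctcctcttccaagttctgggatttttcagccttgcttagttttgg
Sgk1, chr10:21994416-21994665: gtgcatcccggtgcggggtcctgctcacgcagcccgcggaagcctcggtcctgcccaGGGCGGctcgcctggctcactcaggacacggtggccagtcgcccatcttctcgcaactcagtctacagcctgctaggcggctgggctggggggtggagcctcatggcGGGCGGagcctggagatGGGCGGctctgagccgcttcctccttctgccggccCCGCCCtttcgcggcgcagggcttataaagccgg
Fkbp5, chr17:28486150-28486399: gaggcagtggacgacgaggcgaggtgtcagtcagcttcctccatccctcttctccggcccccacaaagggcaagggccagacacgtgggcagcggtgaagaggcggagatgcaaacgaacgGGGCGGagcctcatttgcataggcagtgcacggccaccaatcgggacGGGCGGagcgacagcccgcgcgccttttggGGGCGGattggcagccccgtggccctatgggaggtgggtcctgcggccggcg

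The stretch with the palindrome held 44.8% G and C, against 70.4% for the other Sgk1 stretch and 68% for Fkbp5. The half-element AGAACA, which overlaps the palindrome, was in at least 1 window of 2 of the 8 members, Sgk1 and Tsc22d3, and of 21.3% of all genes with a window. GGGCGG, chosen for display after the sequences had been seen, was in a window of 6 of the 8 members and of 38.2% of all genes. Genes with several windows, such as Sgk1, have more chances to match. A looser palindrome, GNACA and TGTNC around the same gap, which every full match also fits, matched 0.537% of genes. Among the 8 members it matched Sgk1 alone. Of 26 further induced genes listed as context, 22 had a window and 3 matched it; they are given to show how the letters differ between genes.
Mt1, chr8:94178995-94179007, plus strand: GGACATGATGTTC
Txnip, chr3:96557785-96557797, plus strand: GCACACCGTGTCC
Fam107a, chr14:8309885-8309897, minus strand: GGACATGGTGTTC

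These matches describe letters in a short window and not binding, and elements farther away were not searched.

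Before the members' values, 1 feature of the libraries has to be given, because library 1 stood apart from the others. Its log2 difference from the average of the other libraries rose with the GC content of genes (Spearman 0.608 over 14375 genes, a description). The 8 macrophage genes of a marker list summed to 12.3, 261 and 749 counts per 1000000 (CPM) in libraries 1, 2 and 3, and the 5 choroid plexus genes to 93.1, 3190 and 4873 CPM. Library 1 also held 35.7 CPM of Xist, a transcript of the inactive X chromosome, against 0.202 and 0.733 CPM. The Y-linked gene Ddx3y was at 19.9 CPM in library 1 and at 175 and 129 CPM in libraries 2 and 3. Mitochondrial genes took 0.918% of its gene counts, against 3.60% and 3.46%. The defining fibroblast genes were abundant in all 3, with Col1a2 at 11497 ± 935 CPM (SD, n = 3). Gene counts ranged from 21002860 to 28704952 per library, and where a gene has no count its level may still reach 3 counts, or 0.101 to 0.152 CPM, counting error alone considered. In bulk RNA, fewer cells of a type and less RNA per cell cannot be told apart. Values without library 1, and with the trends of GC content and exon length removed, are given for some of the results that they change.

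All 10 members were detected in every library, and all 10 passed the filter on low counts. Levels were compared between genes as CPM per kilobase of exon, and ranked among the genes past the filter. By this measure 6 members lay above percentile 75, which by definition holds for 25% of genes, and 0 below percentile 25. The median of the 10 was 17.2 CPM per kilobase, against 3.70 for all genes tested.

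Nr3c1 (ENSMUSG00000024431.14, chromosome 18, 39410545 to 39519421) encodes the glucocorticoid receptor. Its level was 130, 209 and 161 CPM in libraries 1, 2 and 3. Library 2 was the highest and library 1 the lowest, within a factor of 1.61. Per kilobase this was 21.7 ± 5.21 CPM (SD, n = 3), at percentile 84.7 of genes tested, and between 80.8 and 88.5 in single libraries. After removal of the GC and length trends the values were 187, 164 and 143 CPM. Library 1 moved from lowest to highest, while library 2 stayed above library 3. The transcript has a GC content of 42.2%, the lowest of the 10 members.

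Nr3c2 (ENSMUSG00000031618.13, chromosome 8, 76899442 to 77245012) encodes the mineralocorticoid receptor, which binds corticosterone as well as aldosterone. It was at 31.6, 34.3 and 17.6 CPM. Libraries 1 and 2 lay close together and library 3 was the lowest, also after trend removal. Per kilobase it reached 4.30 ± 1.38 CPM (SD, n = 3), at percentile 53.6. Exons of Nr3c2 share 247 bases with those of Gm10649, an RNA gene on the opposite strand, and the strand setting of the counting was not given.

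The glucocorticoid receptor transcript exceeded the mineralocorticoid receptor transcript in 3 of 3 libraries. The ratio per kilobase was 3.46, 5.14 and 7.69 in libraries 1, 2 and 3, a mean log2 ratio of 2.37 ± 0.58 (SD, n = 3). An exact permutation test that flips signs over libraries, two-sided, gave p = 0.25, and 0.25 after Benjamini-Hochberg adjustment over the 3 gene pairs compared, the smallest value that 3 libraries allow. Without library 1 the mean log2 ratio was 2.65. Other steroid receptors of the same family were lower. Per kilobase, Esr1 (oestrogen receptor alpha) was at 1.34 ± 0.60 CPM (SD, n = 3). Pgr (progesterone receptor) had no count in any library and Esr2 had 1 count in library 2.

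Hsd11b1 (ENSMUSG00000016194.14, chromosome 1, 193221634 to 193264075) encodes the reductase that regenerates active corticosterone from its inert keto form inside the cell. It was at 60.0, 54.2 and 49.2 CPM. The 3 libraries lay within a factor of 1.22. Per kilobase its level was 12.8 ± 1.27 CPM (SD, n = 3), at percentile 76.9. With trends removed the span widened to 1.79-fold, with library 1 at 79.4 CPM against 45.4 and 44.3 CPM.

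Hsd11b2, the enzyme of the opposite reaction, which inactivates corticosterone, had only 71, 29 and 16 counts, or 3.59, 0.974 and 0.617 CPM. Library 1 was the highest for this gene. The ratio of Hsd11b1 to Hsd11b2 per kilobase was 7.24, 24.1 and 34.5, a mean log2 ratio of 4.18 ± 1.18 (SD, n = 3; exact sign-flip permutation p = 0.25, adjusted 0.25). H6pd, which supplies the cofactor that drives Hsd11b1 in its reducing direction, was at 13.6, 17.1 and 11.5 CPM, and Hsd11b1 exceeded it per kilobase 5.44-, 3.90- and 5.27-fold (exact sign-flip permutation p = 0.25, adjusted 0.25). Both ratios had the same direction in 3 of 3 libraries. Without library 1 the mean log2 ratios were 4.85 for Hsd11b1 to Hsd11b2 and 2.18 for Hsd11b1 to H6pd. Their size depended on the length used: with the longest transcript the mean log2 ratio became 5.29 for Hsd11b1 to Hsd11b2 and 3.23 for Hsd11b1 to H6pd, from 4.18 and 2.27, and the former was 5.39 without division by length.

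Genes that make, carry or export corticosteroids completed this picture, on a list of 11 with Hsd11b2 and H6pd. Abcb1a, an efflux pump that carries corticosteroids, was the highest at 77.1, 80.2 and 103 CPM. Per kilobase it reached 15.9 ± 2.61 CPM (SD, n = 3), while its relative Abcb1b was at 0.501 ± 0.101 CPM. Srd5a1, a reductase that begins the breakdown of steroids, was at 6.32, 4.30 and 3.70 CPM, and Star, which delivers cholesterol for steroid synthesis, at 2.02, 2.89 and 1.77 CPM. The enzymes of corticosteroid synthesis were at or near 0. Cyp11a1 had 6, 4 and 31 counts, Cyp21a1 had 3 counts in library 1 and 0 in the others, and Cyp11b1 and Cyp11b2 had none. Serpina6, the corticosteroid-binding protein of plasma, had no count either.

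**Figure D1:**
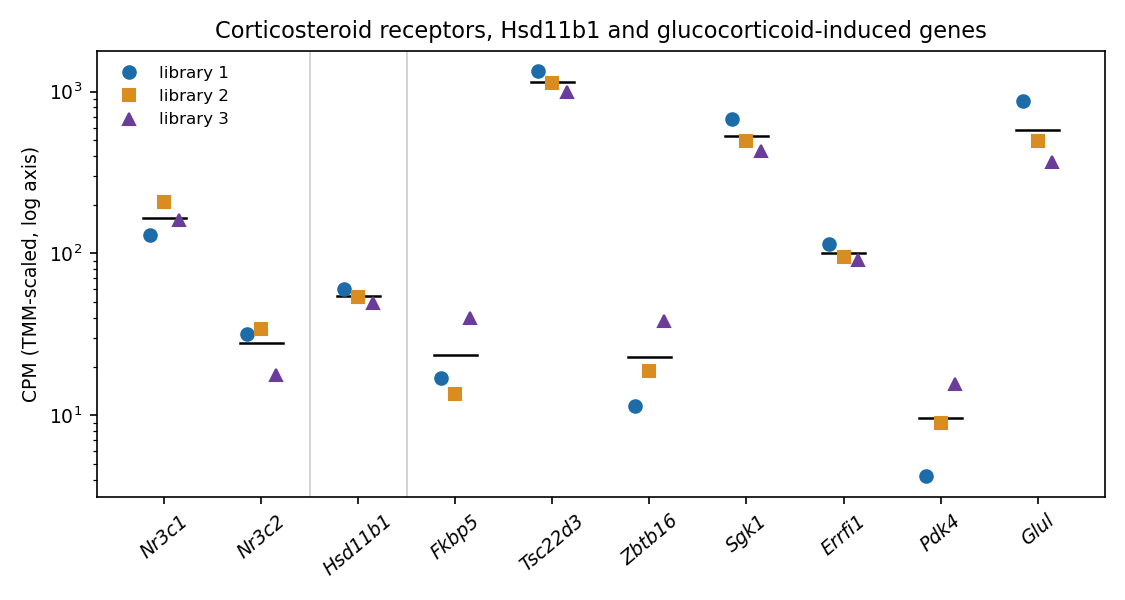
Level of each of the 10 members in the 3 libraries, as TMM-scaled CPM on a log axis; symbols are single libraries and the black line is their mean. Vertical lines separate the receptors, Hsd11b1 and the induced genes. Fkbp5, Zbtb16 and Pdk4 were highest in library 3, whereas Tsc22d3, Sgk1, Errfi1 and Glul were highest in library 1.

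The 7 induced members spanned a wide range, and 4 of them lay above percentile 75. Tsc22d3 (ENSMUSG00000031431.13, chromosome X, 140539528 to 140600659) encodes GILZ, a leucine zipper protein that mediates part of the anti-inflammatory action of glucocorticoids. It was the highest member at 1341, 1124 and 992 CPM. The libraries differed little, with library 1 the highest. Per kilobase it was at 265 ± 40.5 CPM (SD, n = 3), percentile 98.8, the first of the 10 in each library.

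Glul (ENSMUSG00000026473.15, chromosome 1, 153899944 to 153909723) encodes glutamine synthetase, which joins ammonia to glutamate. Its level was 881, 493 and 365 CPM. Library 1 was 1.79-fold above library 2 and 2.41-fold above library 3. Per kilobase it reached 174 ± 80.9 CPM (SD, n = 3), at percentile 98.1. Astrocytes are a known source of Glul, and the 6 astrocyte genes of a marker list summed to 65.3, 53.8 and 105 CPM, lowest in library 2 and highest in library 3, the library in which Glul was lowest; the part of astrocytes in the level of Glul was not tested. Their highest genes were Slc1a3 at 31.5 ± 7.39 CPM and Aldoc at 17.9 ± 10.1 CPM (SD, n = 3). The exons of Glul share 116 bases with Teddm2 on the opposite strand and 93 with the microRNA gene Mir8114 on the same strand.

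Sgk1 (ENSMUSG00000019970.15, chromosome 10, 21882184 to 21999903), the gene whose window held the palindrome, encodes a kinase that regulates ion channels and transporters. It was at 681, 497 and 427 CPM. Library 1 was again the highest and libraries 2 and 3 were close. Per kilobase it was at 109 ± 26.8 CPM (SD, n = 3), percentile 96.8. The counts are per gene, so transcripts from its several starts could not be separated.

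Errfi1 (ENSMUSG00000028967.10, chromosome 4, 150853919 to 150868892), an inhibitor of the epidermal growth factor receptor, was at 115, 95.3 and 91.7 CPM. Its 3 libraries lay within a factor of 1.26. Library 1 was the highest for Tsc22d3, Glul, Sgk1 and Errfi1 under each scaling tried and with trends removed. Per kilobase it reached 28.1 ± 3.52 CPM (SD, n = 3), at percentile 87.9.

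The other 3 induced members were much lower and shared another pattern, highest in library 3. Fkbp5 (ENSMUSG00000024222.16, chromosome 17, 28399094 to 28517527) encodes a co-chaperone that lowers the affinity of the receptor for hormone and so forms a feedback loop. It was at 16.9, 13.6 and 40.2 CPM. Library 3 was 2.38-fold above library 1 and 2.96-fold above library 2, which lay close to each other.

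Zbtb16 (ENSMUSG00000066687.4, chromosome 9, 48654297 to 48836222) encodes the zinc finger repressor PLZF. It was at 11.5, 18.6 and 38.3 CPM, so library 3 was 3.34-fold above library 1 and 2.06-fold above library 2. Pdk4 (ENSMUSG00000019577.6, chromosome 6, 5483351 to 5496309) encodes a kinase that shuts down pyruvate dehydrogenase and spares glucose. Its level was 4.19, 9.01 and 15.5 CPM, with library 3 3.71-fold above library 1 and 1.73-fold above library 2. With the trends removed its level was 5.08, 8.03 and 14.4 CPM, and on the log2(CPM + 1) scale, which understates the change of low genes, library 3 was then 2.44-fold above library 1. Library 3 stayed the highest for all 3 genes under DESeq2 size factors, plain library totals and removal of the trends. Per kilobase they were at 2.49 ± 1.53 (Fkbp5), 4.32 ± 2.63 (Zbtb16) and 2.73 ± 1.62 CPM (Pdk4; SD, n = 3), between percentiles 40.5 and 53.7.

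Other transcripts were also highest in library 3. The 6 mural cell genes of a marker list summed to 3193, 2755 and 4891 CPM, the 5 Schwann cell genes to 2133, 1885 and 3065 CPM, and the macrophage genes as given above. In the mural list 5 of the 6 genes were highest in library 3. The 6 oligodendrocyte genes summed to 231, 275 and 567 CPM. Of all the marker lists, only those of general fibroblast, endothelial and neuron genes did not sum highest in library 3. The part of these cells in the levels of Fkbp5, Zbtb16 and Pdk4 was not tested.

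None of these differences passed the test for variation between libraries. That test asks whether a gene varied more than genes of like abundance, with the spread estimated from these same 3 libraries. A gene that was not called may therefore still differ between libraries. By edgeR's goodness-of-fit test with Benjamini-Hochberg adjustment over 14409 genes, 0 of the 10 members were called, and 0 had an unadjusted p below 0.05; over all genes tested 63 were called, or 0.437%, with 7.04% below the unadjusted threshold. Without library 1, and with the trends removed, 0 members were called too, against 0.175% and 0.68% of genes. Their unadjusted p (edgeR) was below 0.05 in 3 of 10 members in each of these settings, against 5.61% of genes without library 1 and 6.59% with the trends removed. Those 3 were Fkbp5, Zbtb16 and Nr3c2 without library 1, and Fkbp5, Zbtb16 and Glul with the trends removed. The adjusted p-values (edgeR) were lowest for Zbtb16 (0.721), Fkbp5 (0.759), Pdk4 (0.876) and Glul (0.912). Across the alternatives the adjusted p (edgeR) of Fkbp5 was lowest without library 1, at 0.162, and that of Zbtb16 with the trends removed, at 0.222. Library 3 was the highest in 3 of the 10 members, a share close to the 27.6% of all genes tested; with trends removed these were 3 of 10 and 30.2%. Library 3 was at least 2-fold above both other libraries in 2 of the 10, Fkbp5 and Zbtb16, and in 1.9% of genes tested. This limit was not planned and was set for library 3 alone, in which both genes were the highest, so the shares are a description. With the trends removed the call of Zbtb16 depended on the scale: on the CPM scale both met the limit, against 2% of genes, whereas on the log2(CPM + 1) scale Zbtb16 was 1.96-fold above library 2 and missed it.

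**Figure D2:**
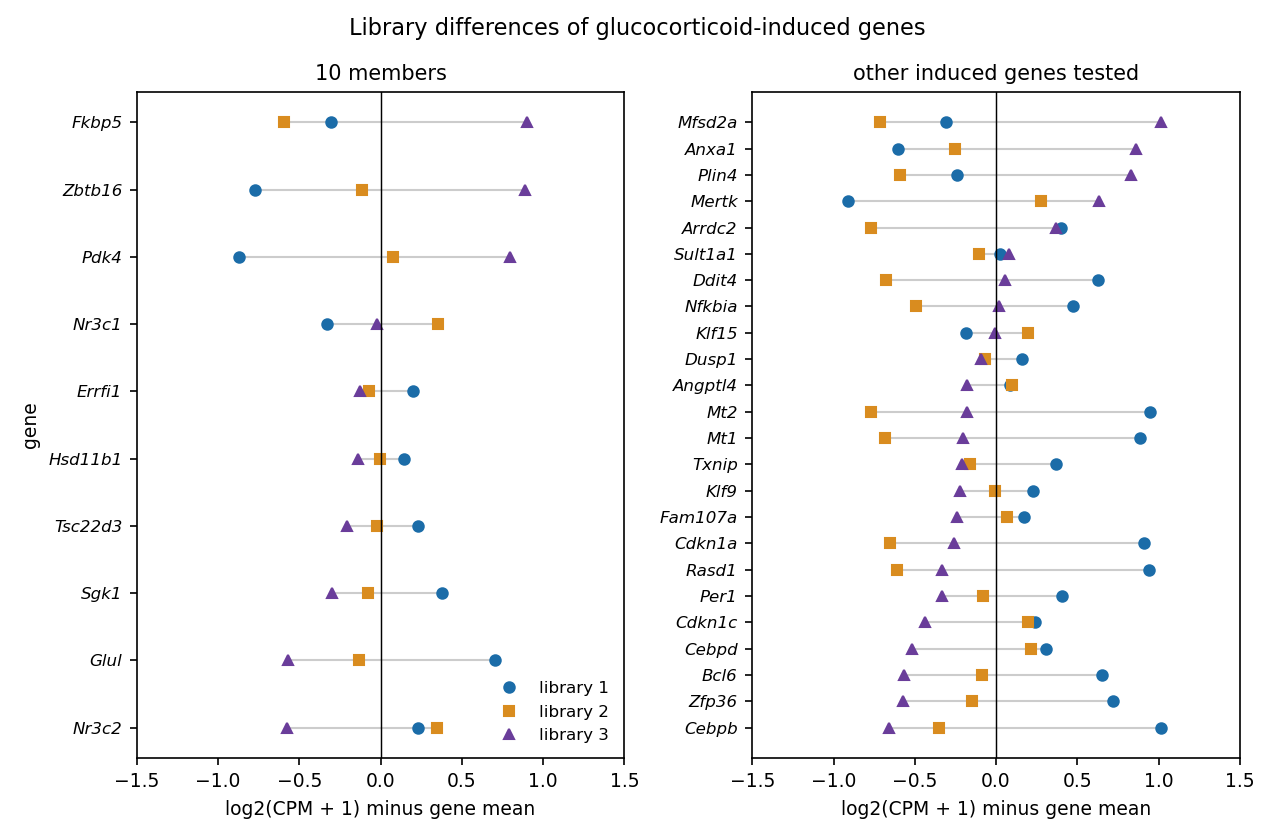
Deviation of each library from the gene's own mean on the log2(CPM + 1) scale, for the 10 members and for the 24 further induced genes past the filter, sorted by library 3. Library 3 lies farthest to the right for Fkbp5, Zbtb16 and Pdk4 at left, and library 1 for 17 of the 24 genes at right.

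In order of level per kilobase the members ran Tsc22d3, Glul, Sgk1, Errfi1, Nr3c1, Hsd11b1, Zbtb16, Nr3c2, Pdk4 and Fkbp5. Only 3 of the 9 steps between neighbours were separated in the sense that the lowest library of one exceeded the highest library of the next. These were Sgk1 above Errfi1, Nr3c1 above Hsd11b1, and Hsd11b1 above Zbtb16. Tsc22d3 overlapped Glul, Glul overlapped Sgk1, Errfi1 overlapped Nr3c1, and each neighbouring pair among the last 4 overlapped too. The order of several members depended on the length used. By the longest transcript of each gene Zbtb16 came below Nr3c2, at 4.46 against 4.70 CPM per kilobase. The exons of Fkbp5 add up to 9468 bases over all annotated transcripts, whereas the longest transcript has 3858. Divided by the latter Fkbp5 was at 6.10 CPM per kilobase and ranked seventh instead of last. Hsd11b1 has 4251 bases of exon and a longest transcript of 1978. By the latter its mean was 27.5 CPM per kilobase, above the 25.9 of Nr3c1, so that the step between them turned round.

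**Figure D3:**
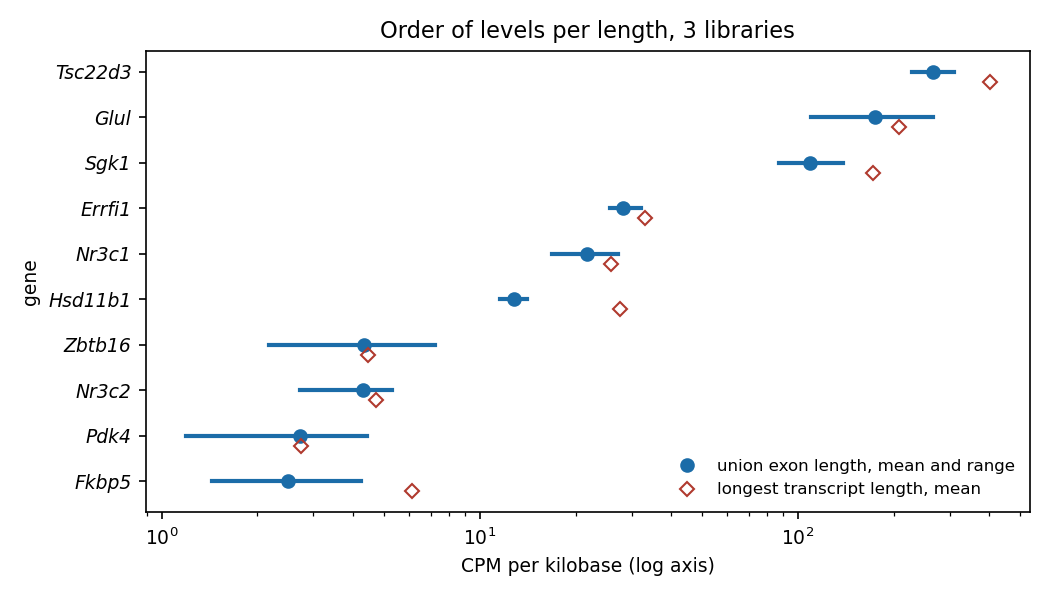
Members in order of CPM per kilobase on a log axis; filled circles and lines give the mean and the range of 3 libraries by exon length of all transcripts, open diamonds the mean by the longest transcript. Tsc22d3, Glul and Sgk1 form a group above 80 CPM per kilobase in every library, and Zbtb16, Nr3c2, Pdk4 and Fkbp5 overlap at the bottom.

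The 3 genes nearest to Nr3c1 in log2(CPM + 1) over the 3 libraries were Fkbp9 (Euclidean distance 0.0954), Naaa (0.167) and Sec22b (0.184). Fkbp9 was at 129, 220 and 167 CPM. With 3 libraries such nearness describes a level and a shape with 3 points only.

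The receptor's partners were measured next, from lists of context genes. The chaperone list held 11 genes, all past the filter, of which 8 lay above percentile 75 and 0 were called variable. Hsp90ab1 and Hsp90aa1, forms of the chaperone that holds the receptor ready for hormone, were at 674 ± 229 and 157 ± 31.1 CPM per kilobase (SD, n = 3). Hspa8, which helps to load the receptor onto that chaperone, lay between them at 294 ± 64.1 CPM per kilobase, Stip1, which links both chaperones, at 115 ± 30.4, and Dnajb1 at 37.9 ± 1.49. Fkbp4, the co-chaperone that takes the place of Fkbp5 on the receptor when hormone binds, was at 15.5 ± 4.17 CPM per kilobase, with 55.3, 32.0 and 43.1 CPM in libraries 1, 2 and 3. Library 3 exceeded library 2 in 11 of 11 chaperone genes, against 49.5% of genes tested, and in 8 of 11 after trend removal, against 50.1%. The inducible heat shock gene Hspa1a, on the list of immediate early genes, was at 61.6, 35.9 and 105 CPM.

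Coregulators, which pass the signal of the bound receptor to the transcription machinery, were moderate in level: 1 of 11 lay above percentile 75 and 0 were called variable. Smarca4, the motor of a chromatin remodelling complex, was the highest at 24.7 ± 0.293 CPM per kilobase (SD, n = 3). Its values of 161, 162 and 158 CPM were almost equal in the 3 libraries. Ncoa3, Crebbp and Ncor1 were at 10.6 ± 2.54, 8.22 ± 1.23 and 5.85 ± 0.798 CPM per kilobase (SD, n = 3). Library 2 was the highest for 8 of the 11, against 32.8% of genes tested, and for 6 after trend removal, against 29.6%.

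**Figure D4:**
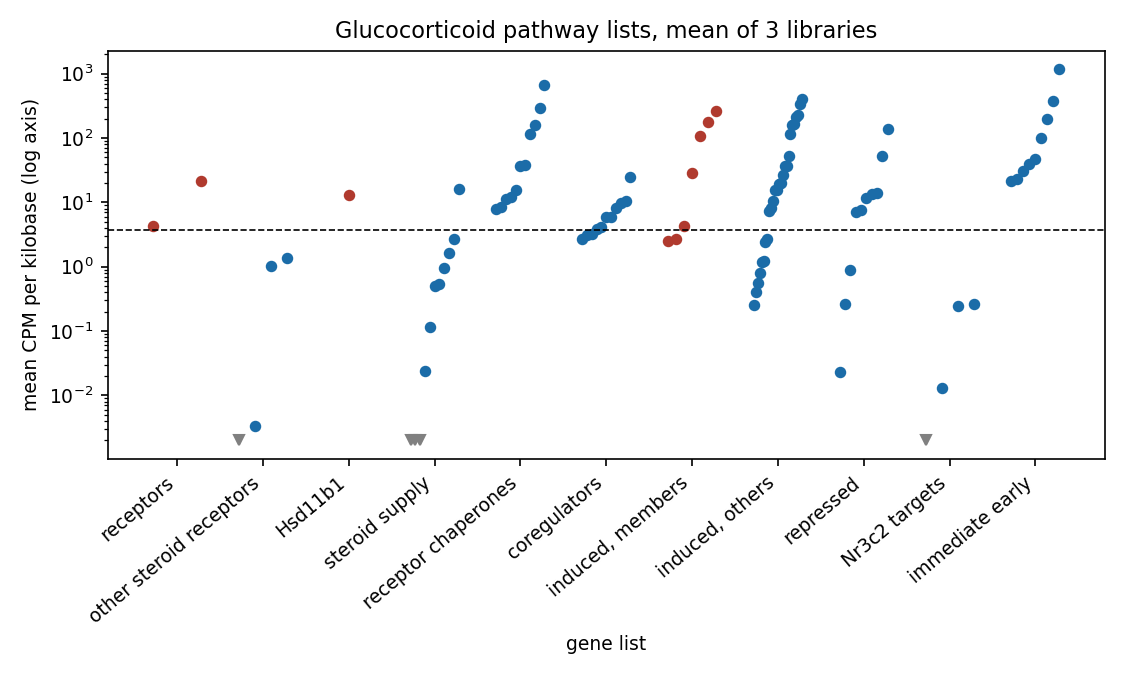
Mean CPM per kilobase of every gene on the pathway lists, on a log axis; each circle is 1 gene averaged over 3 libraries, red for the members and blue for context genes. Grey triangles at the lower edge are genes with no count, and the dashed line is the median of all genes tested (3.70 CPM per kilobase). Chaperones and immediate early genes lie above the line, and the enzymes of corticosteroid synthesis below it.

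A list of 26 further genes known to be induced by glucocorticoids placed the 7 induced members in a wider set. Of these, 24 passed the filter and 15 lay above percentile 75; Lcn2 and Hif3a did not pass. The highest per kilobase were Txnip, which restrains thioredoxin and glucose uptake, at 402 ± 94.9 CPM, the metallothionein Mt1 at 332 ± 194, Nfkbia, the inhibitor of NF-kB, at 228 ± 74.7, Zfp36, which destabilises inflammatory messenger RNAs, at 210 ± 99.9, and Mt2 at 167 ± 105 CPM (SD, n = 3). Txnip was at 1598, 1104 and 1067 CPM in libraries 1, 2 and 3, and Zfp36 at 1118, 612 and 454 CPM. Both were highest in library 1. Mt1 was at 687, 231 and 323 CPM, again highest in library 1 and lowest in library 2.

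None of the 24 was called variable, while 7 had an unadjusted p below 0.05 (edgeR goodness of fit), against 7.04% of genes tested. Library 1 was the highest in 17 of the 24, against 39.6% of genes tested; the number was 17 with DESeq2 size factors (40.3% of genes), and 13 both with plain totals (33.1%) and with trends removed (40.2%). Library 1 was the highest in 7 of 9 immediate early genes as well, which became 5 with plain totals and with trends removed. The list of immediate early genes, which dissociation of tissue is known to raise, was led by Fos at 1171 ± 311 and Nr4a1 at 383 ± 163 CPM per kilobase (SD, n = 3). Junb, Egr1 and Atf3 followed at 195 ± 54.5, 99.0 ± 19.1 and 47.4 ± 9.87 CPM per kilobase. Sgk1, Errfi1, Zfp36 and Nfkbia are also known to respond to stimuli other than glucocorticoids; the part of dissociation in their levels was not tested.

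A list of 4 genes tied to the mineralocorticoid receptor in epithelia held only low levels or no counts. Sgk1 and the other members were not on that list. Scnn1a, a subunit of the epithelial sodium channel, was at 1.16, 1.18 and 0.887 CPM. Scnn1b had 2 counts in library 1 and 0 in the others, Scnn1g had none, and Nedd4l, which removes that channel from the membrane, was at 3.38, 4.20 and 5.17 CPM.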

How the data were processed

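The authors deposited raw counts per gene, per the file headers: whole numbers that differ in total between libraries, although per the labels the processed file should be normalized. The submitters' processing notes name the build mm10, HTSeq 0.5.3 and DESeq2 1.22.1; aligner, annotation release and strand setting were not given in the sources used here. Per the labels' protocols, the cDNA was amplified with a low-input template-switching kit, without molecular identifiers. The 5 counter rows (39.1% to 45.6% of each table total) were left out. Coordinates, exon lengths and GC content come from GENCODE M21 (GRCm38, the same assembly as mm10), matched for 98.9% of genes. Library sizes were scaled by TMM (edgeR 4.0.16, R 4.3.3), and genes were filtered at a minimum count of 10. That minimum had to be met, on the CPM scale, in every library, so genes near absent in library 1, such as Tnf, dropped out. A single group leaves nothing for the quasi-likelihood test of edgeR to contrast, so variation between libraries was tested by goodness of fit at the trended dispersion (2 degrees of freedom, threshold 0.05) and checked on simulated data. DESeq2 1.42.0 supplied alternative size factors. Alternatives also covered filters, dispersion, length and trend removal. The members and lists were chosen with earlier results of these data known. Named were all members, whole lists of receptors, steroid supply and mineralocorticoid targets, the 5 highest genes of other lists, at most the 2 highest genes of a cell type list, and 3 neighbours of Nr3c1; others were chosen after their values were seen. A planned comparison of receptor proteins and a planned search farther from starts were not run. Some items that this naming would include are not reported here.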

Additional observations from a re-analysis of the deposited data

How the results depend on the processing

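Within-library ratios do not depend on library scaling, and their means do not move with trend removal, by construction. The ratios of single libraries, printed without trend removal, do move with it. On the log2(CPM + 1) scale, library 3 minus library 1 went from -0.280 to -0.838 for Hsd11b1. For H6pd it went from -0.224 to 0.0338. No member was called variable under any of the 9 alternatives. The count of variable genes (63) was 139 with no filter, 187 with a mean count of at least 10, 98 with trends removed, and, with fewer samples, 13 to 29 upon leaving out each replicate (27 without library 1, 29 without library 2, 13 without library 3). The separated steps in the members' order (3) were 5 without division by length and 4 to 5 upon leaving out each replicate, where ranges span fewer libraries. Members above percentile 75 per kilobase numbered 6 under all alternatives run for them. With trends removed 0 members, in place of 2, were highest in library 2, against 29.6% and 32.8% of genes tested. Library 1 was then the highest in 7 of the 10, in place of 5, against 40.2% and 39.6% of genes. No paired analysis was possible because the libraries form 1 group, with no second group to pair them with. Cyp11b1, Cyp11b2, Pgr, Serpina6 and Scnn1g had no count, so depth sets only an upper limit on their levels. Whether they were absent was not tested.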

Other observations

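The list of genes that glucocorticoids are known to repress held both abundant and nearly missing transcripts. Of its 10 genes, 7 passed the filter and 4 lay above percentile 75 per kilobase. Icam1, an adhesion molecule for leukocytes, was at 981, 401 and 416 CPM in libraries 1, 2 and 3, and Ptgs2, the inducible enzyme of prostaglandin synthesis, at 287, 309 and 121 CPM. Vcam1 was at 108, 139 and 128 CPM, and the chemokines Cxcl1 and Ccl2 at 25.7 ± 7.32 and 13.1 ± 2.91 CPM (SD, n = 3). None was called variable among 14409 genes (edgeR goodness of fit, against 0.437% of genes), and Ptgs2 passed the threshold with the trends of GC content and length removed (edgeR adjusted p = 0.0263, 0.796 without that step). Il6 was at 11.4, 28.6 and 14.8 CPM. Tnf, Il1b and Nos2 did not pass the filter; Tnf had 0, 44 and 73 counts and Nos2 had 6 counts in library 1 alone.

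Lcn2, an iron-binding defence protein on the list of further induced genes, was chosen here after its values were seen. It had 8, 59 and 434 counts, or 0.404, 1.98 and 16.7 CPM, lowest in library 1 and highest in library 3, as were the macrophage markers given above. It fell below the filter used for the main test, which had to be met in every library. With a filter on a mean count of at least 10 it was called variable (edgeR goodness of fit, adjusted p = 0.00108), and with no filter likewise (adjusted p = 0.00179). The part of other cells in its level was not tested.

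Anxa1, a mediator of glucocorticoid action on inflammation, differed from most of the further induced genes in being highest in library 3, at 274, 350 and 759 CPM (edgeR goodness of fit, adjusted p = 0.653). Mfsd2a and Plin4 were also highest there: Mfsd2a stood at 1.62, 0.974 and 5.55 CPM and Plin4 at 1.57, 1.01 and 4.40 CPM. Neither passed the test (edgeR adjusted p = 0.519 and 0.797).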
